A study of Homo sapiens with 8 samples.

Results

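The effect of panobinostat given alone was read from RNA-seq of 92.1 cells, in which 2 libraries of cells exposed to 10 nM panobinostat for 24 h were compared with 2 libraries of cells given the vehicle DMSO. These 4 of the 8 libraries of the series were chosen by the treatment named on their labels, and all 18406 genes of the deposited table were examined. 92.1 is an established line grown from a uveal melanoma, the tumour of the pigment cells of the eye, and is known to carry an activating mutation of GNAQ, so every group came from 1 tumour and no normal melanocyte was included. The other 4 libraries, 2 in each group, came from the same line given the MEK inhibitor trametinib at 10 nM for 24 h, or trametinib together with panobinostat for 24 h, a label that gives 10 nM once for both drugs. A label of the panobinostat libraries also calls that drug a MEK inhibitor, and the drug name was followed. No source used here says whether the 2 libraries of a group came from separate cultures, and the p-values therefore reflect only how far the libraries of a group differ, which may be technical variation. The libraries with panobinostat, alone or combined, were registered in a block of sample numbers apart from the vehicle and trametinib libraries, and the submitters' processing notes name a genome build for the latter only. Any difference between these 2 sets of libraries other than the drug cannot be told apart from panobinostat.

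Panobinostat blocks the zinc-dependent histone deacetylases, the enzymes that take acetyl groups off histone tails and many other proteins. In their presence, promoters and enhancers held in a deacetylated state tend to stay silent, and blocking them is known both to switch on genes that a cell type normally keeps silent and to lower many highly transcribed genes. Deacetylase inhibitors are also known for slowing the cell cycle and for raising CDKN1A, the p21 inhibitor of cyclin-dependent kinases.

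Values are read counts that the authors divided by a size factor for each library, called normalised reads here, and they are not divided by gene length. A change is the difference between the mean log2(value + 1) of the 2 panobinostat and the 2 vehicle libraries, given with its standard error (SE), a scale that understates the change of genes with low values. A gene is said to rise or fall where the adjusted p (limma, Benjamini-Hochberg over all genes tested) was below 0.05. Of the 18406 genes, 13362 had a mean of at least 10 and were tested, and counts of list members cover the tested members only.

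Promoter windows of 4 genes from lists described further on are printed first, each from 250 bases before to 50 bases after a RefSeq transcription start (GRCh38.p14, read 5′ to 3′ on the gene's strand). The capitals mark short letter motifs, and how many windows of each list hold them follows. CDC6, which loads the replicative helicase, lies on the plus strand (chr17:40287629-40287928), and the capitals mark an E2F motif (TTTGGCGC) and CCAAT boxes on either strand. CCNB2, a mitotic cyclin, lies on the plus strand (chr15:59104896-59105195), and the capitals mark CCAAT boxes and the cell cycle genes homology region or CHR (TTTGAA). HIST1H2AB, now named H2AC4, encodes a replication-dependent histone on the minus strand (chr6:26033569-26033868), and the capitals mark CCAAT boxes, an octamer (ATGCAAAT, the reverse complement of ATTTGCAT) and a TATA box (TATAAA). SYN1, which encodes the synaptic vesicle protein synapsin, lies on the minus strand (chrX:47619808-47620107), and the capitals mark the element RE1, to which the repressor REST is known to bind.
CDC6: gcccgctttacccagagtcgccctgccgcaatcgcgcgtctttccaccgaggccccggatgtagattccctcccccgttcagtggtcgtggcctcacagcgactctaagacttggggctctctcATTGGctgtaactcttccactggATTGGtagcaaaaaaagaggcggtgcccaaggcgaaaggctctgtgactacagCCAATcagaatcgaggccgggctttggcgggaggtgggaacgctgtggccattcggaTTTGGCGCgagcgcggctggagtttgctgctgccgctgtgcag
CCNB2: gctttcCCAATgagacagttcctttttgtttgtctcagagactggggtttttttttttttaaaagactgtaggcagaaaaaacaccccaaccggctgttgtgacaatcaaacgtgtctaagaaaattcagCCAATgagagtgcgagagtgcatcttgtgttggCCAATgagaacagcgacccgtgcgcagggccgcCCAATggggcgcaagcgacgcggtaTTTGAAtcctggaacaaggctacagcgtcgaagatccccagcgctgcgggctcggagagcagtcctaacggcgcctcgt
HIST1H2AB: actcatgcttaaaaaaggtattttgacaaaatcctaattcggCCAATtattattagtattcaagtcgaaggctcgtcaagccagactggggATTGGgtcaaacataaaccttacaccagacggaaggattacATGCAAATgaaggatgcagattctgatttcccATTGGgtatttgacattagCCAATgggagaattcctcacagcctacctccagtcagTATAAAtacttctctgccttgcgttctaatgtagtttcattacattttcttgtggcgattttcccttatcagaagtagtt
SYN1: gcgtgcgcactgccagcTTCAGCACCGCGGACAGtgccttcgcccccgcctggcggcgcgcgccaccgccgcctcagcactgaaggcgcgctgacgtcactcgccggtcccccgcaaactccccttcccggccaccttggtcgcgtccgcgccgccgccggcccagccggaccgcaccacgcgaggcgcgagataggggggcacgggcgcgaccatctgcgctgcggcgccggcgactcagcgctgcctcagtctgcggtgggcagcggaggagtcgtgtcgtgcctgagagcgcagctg

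The motifs were searched as exact letters on both strands of 35116 such windows, and each window was counted once per motif, with overlapping matches of different motifs allowed. E2F motifs (TTTCCCGC, TTTGGCGC, TTTCGCGC or TTTGCCGC) were found in 19 of 39 windows (48.7%) of the 31 matched genes among the 37 replication genes that fell, against 3.31% of all windows. CHR letters were found in 29 of 43 windows (67.4%) and CCAAT in 31 of 43 (72.1%) of the 34 matched genes among the 41 mitosis genes that fell, against 15.2% and 34.6% of all windows. Of 20 windows from 19 matched replication-dependent histone genes, 18 held CCAAT, 14 held TATAAA and 6 held the octamer ATTTGCAT, which 34.6%, 11.5% and 1.77% of all windows held. CHR letters were in 9 and E2F motifs in 6 of these 20 windows. In 30 windows of the 19 matched nucleotide synthesis genes that fell, 10% held E2F motifs, 13.3% CHR and 36.7% CCAAT, against 3.31%, 15.2% and 34.6% of all windows. The core letters of RE1, searched in 1 form, were found in 5 of all windows (0.0142%). The window of SYN1 was 1 of these and the single match among 13 windows of the synaptic and neuronal genes that rose. A search for 1 exact form in windows this short cannot tell whether other genes of the list have an RE1. Windows of a gene share sequence, and a match describes letters only. Over all tested genes with a window, E2F letters were in 13.1% of the windows of genes that fell by at least 2-fold, 6.5% of those that fell by less, 4.19% of those that did not pass, and 2.85% of those that rose by at least 2-fold.

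With panobinostat 6803 of 13362 tested genes changed (50.9%), with 3381 higher (25.3%) and 3422 lower (25.6%). A change of at least 2-fold was more often a rise, with 1277 genes higher (9.56%) and 733 lower (5.49%). The median change of all tested genes was 0.01 (log2), and 5% of genes lay below -1.08 and 5% above 1.55. The vehicle and panobinostat libraries did not overlap in 10323 genes (77.3%), and with 2 libraries against 2 a two-sided exact permutation test of a single gene cannot go below a p of 1 in 3. With the spread taken from all 8 libraries, of which the 2 trametinib libraries differed from each other most, 1994 genes were higher and 2075 lower. By at least 2-fold, 790 were higher and 541 lower with that spread. With genes of a mean of at least 50 only, 823 were higher by at least 2-fold and 634 lower, so rises led by less at these levels. Library totals ranged from 6897784 to 16861001 reads over the 8 libraries and from 10005164 to 16861001 over these 4.

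The share of genes that fell went with the expression level, while the share that rose differed less. Among 2035 genes with a mean of 10 to 50, 531 rose (26.1%) and 84 fell (4.13%). Among 1983 genes with a mean of 1000 to 5000, 556 rose (28.0%) and 838 fell (42.3%). The median SE was 0.48 in the first of these ranges and 0.074 in the second, so small changes passed less readily at low levels. The median change was 0.45 in the first of these ranges and -0.08 in the second. The filter took its mean over the vehicle, panobinostat and combination libraries, most of which had panobinostat. It therefore keeps low genes that rise more readily than low genes that fall, and how much this adds to the rises was not tested. In 30 genes the vehicle mean was below 10 and both panobinostat libraries were at 50 or more, and 0 genes showed the reverse. The 30 include MAP1B and MAPT, which stabilise microtubules in axons, PCDH19, a protocadherin, GNAO1, a G protein subunit of neurons, and EPHA7, an ephrin receptor. IL24, MYEOV, LYPD3, ACOT12, RNF128 and EBF1 are also among the 30, and the share of neuronal genes among them was not counted. The shallower libraries were those of panobinostat, with 2886 and 2880 genes at 0 against 2222 and 2690 with vehicle. MALAT1, a nuclear long noncoding RNA, took 4.19% and 4.23% of reads with vehicle and 8.29% and 8.78% with panobinostat (1.03 ± 0.048, adjusted p = 3.05e-12), and its part in the other changes was not tested. Scale factors recomputed without the extreme genes (TMM) differed from the deposited ones by less than 1%, and gave 3362 higher and 3446 lower genes.

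**Figure D1:**
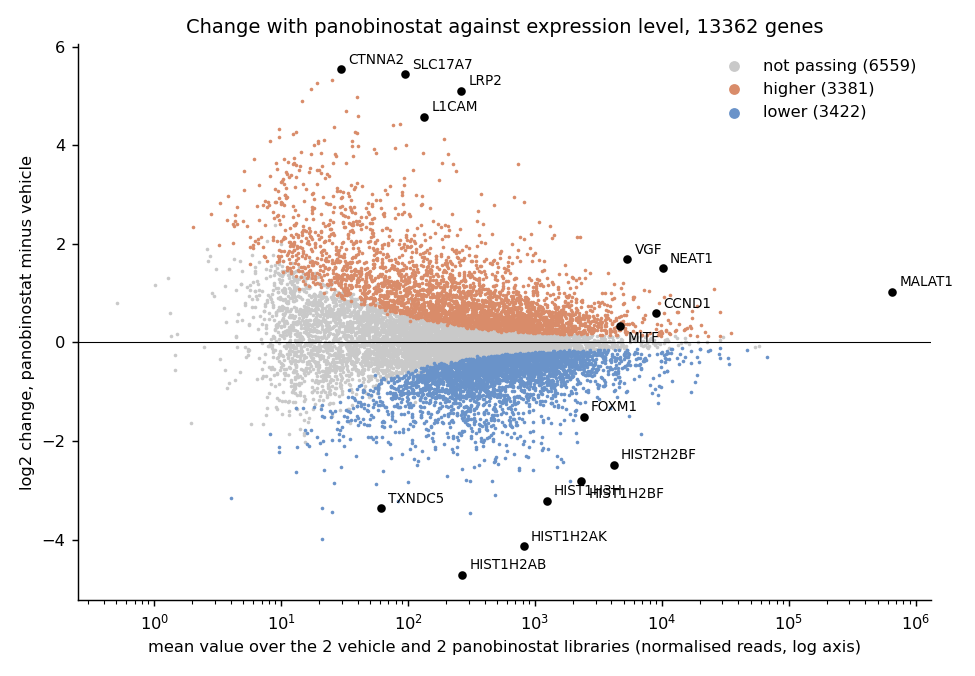
Each point is 1 of 13362 tested genes, with the mean value over the 2 vehicle and 2 panobinostat libraries (normalised reads, log axis) on the x axis and the log2 change on the y axis, coloured by whether the gene was higher, lower or did not pass. Rises spread widest at low levels, where 531 of 2035 genes with a mean of 10 to 50 were higher and 84 lower. At those levels the filter keeps rises more readily than falls.

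Markers of the uveal melanocyte were high, as the label has it. PMEL, the melanosome fibril protein, stood at 37252 and 36220.1 with vehicle and 28666 and 30566 with panobinostat, and MLANA at 5275 and 5464 against 5209 and 5000.3. DCT and S100B, also on that marker list, were below 15 in all 4 libraries. The 3 endothelial markers in the table summed to at most 4.08 in any of these libraries, the 3 epithelial markers to at most 7.82, and the neuron markers SNAP25 and ELAVL3 to at most 7.06. Of 6 fibroblast markers 4 were below 15, and COL1A1 and LUM brought their sum from 391 to 410.1 with vehicle to 974 to 1000.3 with panobinostat. Of 3 immune markers, PTPRC and CD14 were below 4 in all 4 libraries and CD68 brought the sum from 615 to 654 up to 1421 to 1498. Fewer cells of a type and less RNA per cell cannot be told apart in such bulk libraries.

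Histone genes held 9 of the 12 largest falls among genes whose higher group averaged 50 or more, small RNAs and open reading frames left out. All 22 tested replication-dependent histone genes, whose messages are made in S phase and lack a poly(A) tail, were lower. Their median change was -2.45, or -2.03 with no filter on low values, against 0.01 for all tested genes. The lower members came to 17 with the spread from all 8 libraries, against 15.6% of all genes. HIST1H2AB was at 495 and 530.4 with vehicle and at 11.2 and 30.3 with panobinostat (-4.71 ± 0.44, adjusted p = 5.02e-08). HIST1H2AK was at 1348 and 1729 against 82.6 and 89.7 (-4.13 ± 0.19), and HIST1H3H at 2261 and 2215 against 243 and 238 (-3.21 ± 0.13). The groups did not overlap in any of the 3 genes, as the rule that chose them by size of change requires. Over all tested genes the groups did not overlap in 77.3%. HIST1H2BF fell from 3726 and 4334 to 568 and 572 and HIST1H3B from 3189 and 3424 to 458 and 483. The smallest fall of the list was that of the linker histone gene HIST1H1E, at 12709 and 12253 against 6215 and 5772 (-1.06 ± 0.054). HIST1H2AI and HIST1H4C also fell, but with the spread from all 8 libraries, which include a trametinib library at 0 for both, their adjusted p were 0.154 and 0.124. Reads of these near-identical genes may be split between copies, so single members are less certain than the list.

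Of 15 tested replacement histone genes and histone genes known to give polyadenylated messages, 12 fell and 0 rose, with a median of -1.48, or -0.94 with no filter on low values. HIST1H2BK fell from 11019 and 10325 to 2812 and 3050 (-1.86 ± 0.059, adjusted p = 2.68e-14), and HIST2H2BE from 7852 and 8273 to 2808 and 2963. The variant H2AFX, phosphorylated at DNA breaks, fell by 2.00 (log2) and H2AFZ, of active promoters, by 0.94. H3F3B, a replacement H3 gene made outside S phase, was at 3421 and 3266 with vehicle and 3282 and 3210 with panobinostat and did not pass. H1F0, a linker histone gene often reported to respond to deacetylase inhibitors, had 0 and 0 reads with vehicle and 1 and 0 with panobinostat and was not tested.

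**Figure D2:**
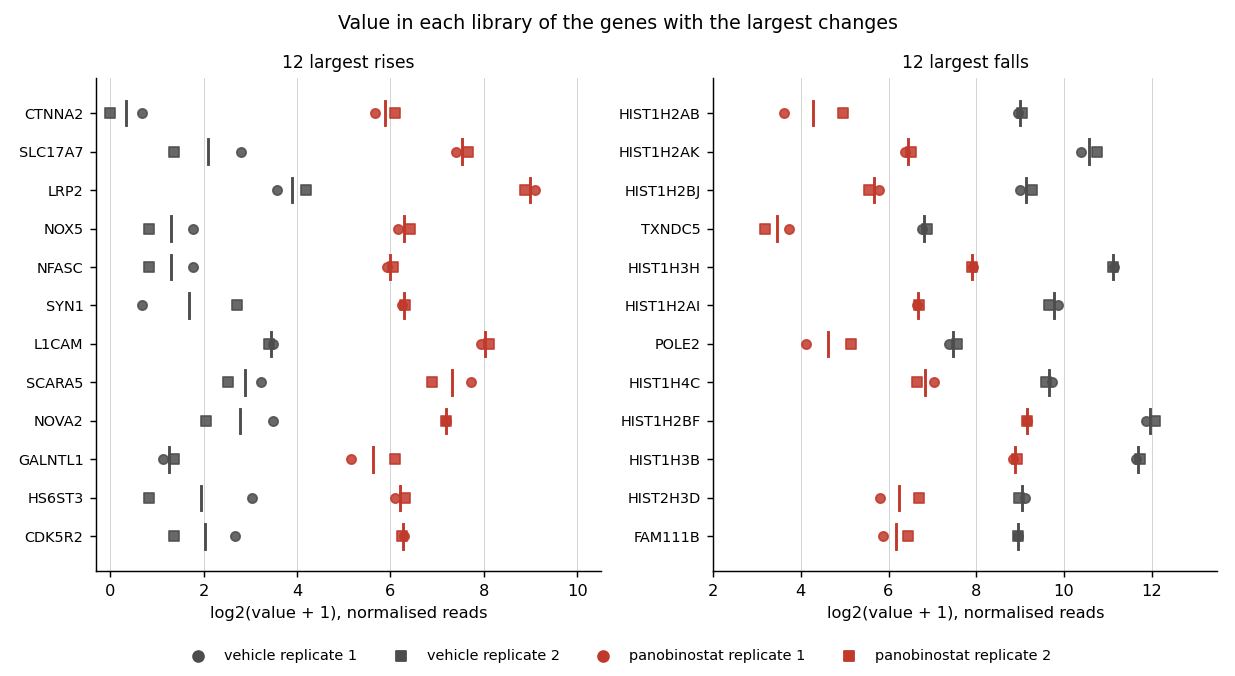
Values in each library, as log2(value + 1) of normalised reads on the x axis, of the 12 genes with the largest rises and the 12 with the largest falls among genes whose higher group averaged 50 or more, small RNAs and open reading frames left out, with circles and squares for the 2 replicates of each group. The groups do not overlap in any of the 24 genes, as the rule that chose them requires, and HIST genes fill 9 of the 12 falls.

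Replication genes fell almost as a block. Of 39 tested genes for origin licensing and the fork, 37 were lower and 0 higher, with a median of -1.60, against 25.6% lower of all genes. The lower genes came to 27 with the spread from all 8 libraries, against 15.6% of all genes. CDC6 was at 999.7 and 941 with vehicle and at 198 and 183 with panobinostat (-2.35 ± 0.23, adjusted p = 6.42e-08). CDT1, its licensing partner, was at 1290.4 and 1285 against 250 and 182. MCM4 and MCM7 of the helicase fell by 2.02 and 2.31 (log2), MCM3 by 1.45, and PCNA, the sliding clamp, by 1.62. All 6 of these genes were lower in both panobinostat libraries than in either vehicle library, which the rule by size of change required of MCM3. The groups did not overlap in 77.3% of all tested genes. POLE2, a polymerase subunit, fell by 2.83, but its adjusted p was 0.12 with the spread from all 8 libraries. The members that did not pass were RPA1 and RPA3, which coat single-stranded DNA, at -0.22 and -0.26. RPA1 passed with edgeR (adjusted p = 0.0466), and RPA3 without panobinostat replicate 2 (adjusted p = 0.044).

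Enzymes that make DNA precursors fell with them. Of 25 tested nucleotide synthesis genes 23 were lower and 0 higher, with a median of -0.85, and 20 were lower with the spread from all 8 libraries. RRM2, the limiting subunit of ribonucleotide reductase, was at 2401 and 2682 with vehicle and 443 and 434 with panobinostat (-2.53 ± 0.11, adjusted p = 1.05e-12). TYMS, thymidylate synthase, was at 1064 and 1187 against 205 and 264 (-2.27 ± 0.15). CAD, which starts pyrimidine synthesis, fell by 1.34. RRM2B, the p53-responsive reductase subunit that works outside S phase and is on the list of p53 targets, rose from 372 and 363 to 498 and 486 (0.42 ± 0.11).

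Mitosis genes fell too, in 41 of 42 tested members with a median of -1.39, or in 34 with the spread from all 8 libraries. Of all genes 25.6% fell, or 15.6% with that spread. FOXM1, a transcription factor of mitotic genes, was at 3739 and 3438 with vehicle and 1222 and 1297 with panobinostat (-1.51 ± 0.073, adjusted p = 4.43e-12). TOP2A, which untangles chromosomes, fell by 1.58, MKI67, the proliferation antigen, by 1.63, CENPF of the kinetochore by 1.84 and AURKB of the passenger complex by 2.12. CCNB2, whose window is printed above, fell by 0.59, from 615 and 585 to 362 and 438. The exception was PTTG1, securin, which holds sister chromatids together until anaphase and rose from 2219 and 2258 to 3710 and 3524 (0.69 ± 0.063, adjusted p = 3.43e-08).

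Homologous recombination and damage response genes were lower in 25 of 29 tested members, or 20 with the spread from all 8 libraries. Their median change was -1.27, and 25.6% of all genes were lower, or 15.6% with that spread. BRCA1 was at 1267 and 1308 with vehicle and 296 and 324 with panobinostat (-2.05 ± 0.12, adjusted p = 6.29e-11), and BRCA2 at 1005 and 964 against 207 and 221 (-2.20 ± 0.15). CHEK1, the checkpoint kinase, fell by 1.92. ATM and RAD50 did not pass. TP53BP1 was the single member higher, at 0.30 ± 0.11, and lost its call without either vehicle library or without panobinostat replicate 2, which leave 0 members higher, and with the spread from all 8 libraries (adjusted p = 0.162).

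Around the G1 decision, genes moved in both directions. Of 19 tested cyclin, CDK, E2F and RB family genes, 11 fell and 3 rose, against 25.6% and 25.3% of all genes. With all 8 libraries 8 fell and 2 rose, against 15.6% and 15% of all genes. E2F1, the activator of S phase genes, was at 698 and 637 with vehicle and 136 and 118 with panobinostat (-2.39 ± 0.19, adjusted p = 5.96e-09), E2F7 fell by 1.76 and CDK4 by 0.93. CCND1, the D cyclin that partners CDK4, rose from 7030.2 and 7329.5 to 11074 and 10677 (0.60 ± 0.056). CDKN1A rose from 2564 and 2601 to 3579 and 3611 (0.48 ± 0.054, adjusted p = 6.19e-07). CDKN1C, p57, was at 10.8 and 3.17 against 53.01 and 54.5 (2.96 ± 0.42), CDKN2B, p15, rose by 1.49, and CDKN2C, p18, fell by 1.17. So 4 of 8 tested inhibitor genes were higher and 2 lower, or 1 lower without panobinostat replicate 2, without vehicle replicate 2 or with all 8 libraries.

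Among 23 tested p53 targets 7 rose and 3 fell, against 25.3% and 25.6% of all genes. TP53INP1 rose by 1.31 and PLK2 by 0.86, while PHLDA3 fell by 1.14, and MDM2, the negative regulator of p53, did not pass (0.13). Genes of apoptosis moved in both directions. BMF and BCL2L11 (BIM), which antagonise BCL2, rose by 1.46 and 0.99, and BID and BOK fell by 1.22 and 1.21, so that 4 of 11 tested pro-death members were higher and 4 lower, and 2 higher with the spread from all 8 libraries. BIK, another antagonist, had 0 reads in both vehicle libraries and 20 in the panobinostat libraries, at least 4.85-fold higher against a floor of 3 reads per library, with an adjusted p of 0.102 under that spread. BIRC5, survivin, which also works in mitosis, fell by 1.41.

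Neuronal genes rose, several of them from values near 0. Of 20 tested synaptic and neuronal genes 11 were higher and 1 lower, with a median of 1.19. With a mean of at least 50 required, 7 were higher and the median was 0.63, and with the spread from all 8 libraries 7 were higher and 0 lower. The 1 lower member lost its call without vehicle replicate 1. SLC17A7, the vesicular glutamate transporter VGLUT1, was at 6.02 and 1.58 with vehicle and 169 and 201 with panobinostat (5.44 ± 0.37, adjusted p = 6.00e-10). SYN1 was at 0.602 and 5.54 against 75.4 and 78.7 (4.59 ± 0.52), and UNC13A, which primes synaptic vesicles, rose from 300.3 and 365 to 1464 and 1581 (2.197 ± 0.16). In these 3 genes both panobinostat libraries lay above both vehicle libraries, which the rule by size of change required of SLC17A7 and SYN1. The groups did not overlap in 77.3% of all tested genes. RAB3A, NLGN2 and GRIN2D, also synaptic, did not pass. The summed level of the neuron markers SNAP25 and ELAVL3 stayed at or below 7.06, too low for either to be tested. REST, the repressor of neuronal genes, was at 785 and 837 with vehicle and 898 and 711 with panobinostat and did not pass. Of the 10 tested genes of REST and its corepressors 3 fell and 1 rose, with a median of -0.02, against 25.6% and 25.3% of all genes. EHMT2, a histone methyltransferase, fell by 0.96, CTDSP1 by 0.83 and RCOR1 by 0.38. SIN3A rose by 0.24, a call lost with all 8 libraries.

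Adhesion molecules of the immunoglobulin families that nerve cells use rose in 12 of 17 tested members and fell in 0, with a median of 1.74. Of all genes 25.3% rose and 25.6% fell. The rises came to 10 with all 8 libraries, against 15% of all genes. L1CAM was at 10.2 and 9.5 with vehicle and 244 and 274 with panobinostat (4.58 ± 0.24, adjusted p = 1.41e-11). CNTN1, contactin, was at 121 and 119 against 821 and 841 (2.78 ± 0.097), and ALCAM at 431 and 429 against 1475 and 1489 (1.78 ± 0.077). NCAM1 rose by 2.00 and NFASC, neurofascin, by 4.69. CTNNA2, the catenin of neuronal cadherin junctions, showed the largest change of the genes named by size, with 1 read in the vehicle and 116 in the panobinostat libraries, a ratio of 172 after scaling for depth (95% interval 30.3 to 6851, counting error only). CDH2, N-cadherin, rose from 46.3 and 38.0 to 190 and 169 (2.07 ± 0.21).

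Microtubule proteins of neurons were higher in 13 of 19 tested members and lower in 1, against 25.3% and 25.6% of all genes. Their median was 1.92, or 1.21 with a pseudocount of 8, and 10 were higher with all 8 libraries. MAP2, of dendrites, was at 119 and 101 with vehicle and 1387 and 1330 with panobinostat (3.62 ± 0.10, adjusted p = 1.10e-14). DCX, doublecortin, of migrating neurons, had 1 read in the vehicle and 98 in the panobinostat libraries (ratio 145, 95% interval 25.5 to 5797). TUBA1A rose by 1.57 and TUBB4A by 0.93, tubulin genes whose reads may be shared with close copies. TUBB3 did not pass and STMN1, stathmin, known also from dividing cells, fell by 0.30. Genes of peptide hormone secretion moved the same way, with 7 of 8 tested members higher. VGF, a granin-like secretory protein, was at 2523 and 2534 against 8093 and 8185 (1.69 ± 0.081), and CPE, which trims prohormones, rose by 1.42. The neuropeptide gene GAL was the 1 member that fell, by 0.65.

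Of 17 tested potassium channel genes 11 rose and 2 fell, but 4 rose and 0 fell with the spread from all 8 libraries, 7 rose and 0 fell with a mean of at least 50, and 7 rose without vehicle replicate 2 or without panobinostat replicate 2. Without either of those libraries or without vehicle replicate 1, 1 fell. Of all genes 25.3% rose and 25.6% fell, or 15% and 15.6% with all 8 libraries. KCNJ2, an inward rectifier, was at 4.21 and 7.92 with vehicle and 54.0 and 37.3 with panobinostat. NOVA2, a splicing factor of neurons, was at 10.2 and 3.17 against 146 and 145 (4.42 ± 0.39), and CDK5R2, an activator of the neuronal kinase CDK5, at 5.42 and 1.58 against 77.5 and 74.6. With a mean of at least 50 in the panobinostat libraries required, a limit that DCX fell just below, the remaining genes among the 12 largest rises were NOX5, an NADPH oxidase (4.98 ± 0.89), SCARA5, a ferritin receptor (4.44 ± 0.50), GALNTL1, a glycosyltransferase (4.37 ± 0.55), and HS6ST3, a heparan sulfate sulfotransferase (4.26 ± 0.68). The remaining genes among the 12 largest falls were TXNDC5, an endoplasmic reticulum disulfide isomerase, at 108 and 116 against 12.2 and 8.07 (-3.37 ± 0.49), and FAM111B, a protease (-2.79 ± 0.33).

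**Figure D3:**
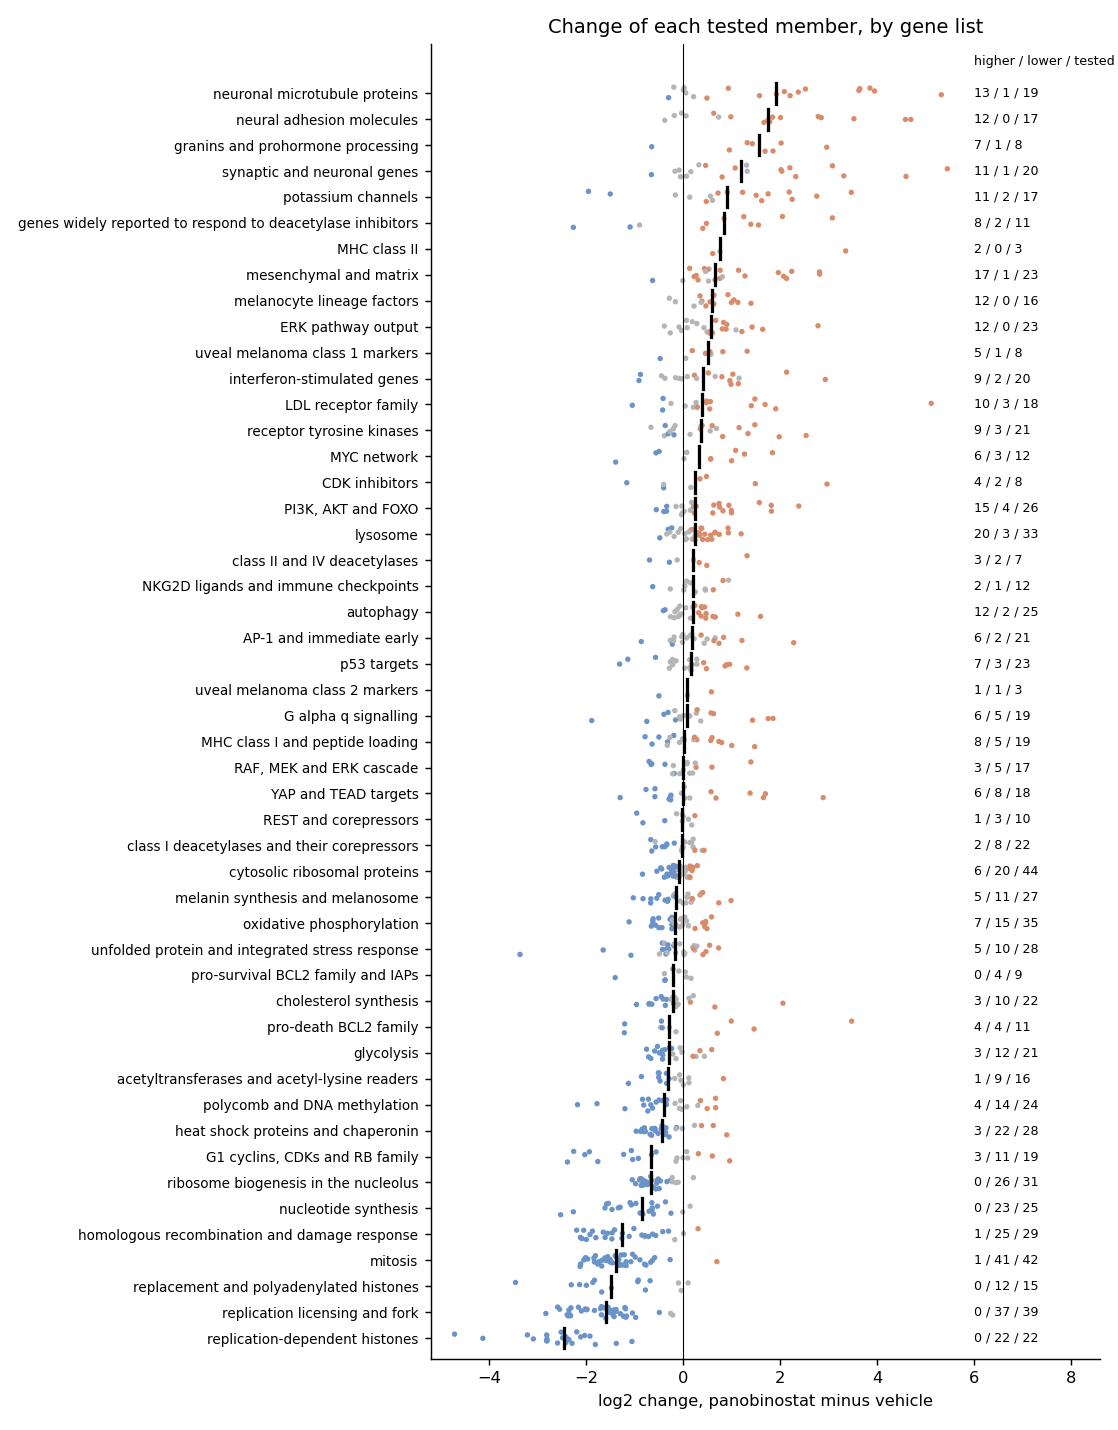
Each point is the log2 change of 1 tested member of a gene list, the black bar is the list's median, and the figures at the right give the members higher, lower and tested. Histone, replication and mitosis lists lie to the left of 0, with medians of -2.45, -1.60 and -1.39, and the neural adhesion and neuronal microtubule lists to the right, with medians of 1.74 and 1.92.

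Among the class I, II and IV deacetylase genes, HDAC9 alone passed with a change of at least 2-fold. Of 7 tested class II and IV genes 3 rose and 2 fell, or 2 and 2 with all 8 libraries. HDAC5 rose by 0.33, and its adjusted p was 0.0513 with all 8 libraries. HDAC9, a class II enzyme, was at 1307 and 1222 with vehicle and 3100.1 and 3191 with panobinostat (1.31 ± 0.071, adjusted p = 1.84e-11). HDAC7 fell by 0.70 and HDAC6, the tubulin deacetylase, rose by 0.48, a call lost without panobinostat replicate 1 (0.34, adjusted p = 0.109). HDAC1 (0.20 ± 0.094, adjusted p = 0.0801) and HDAC3 (-0.03) did not pass, though HDAC1 passed with the 4 libraries alone (adjusted p = 0.0465). HDAC2 fell by 0.34, and its adjusted p was 0.139 with the spread from all 8 libraries and 0.213 and 0.207 without panobinostat replicate 2 and without vehicle replicate 2. Of 22 tested class I deacetylases and corepressor subunits 8 fell and 2 rose, against 25.6% and 25.3% of all genes, with a median of -0.02. With all 8 libraries 5 fell and 1 rose, against 15.6% and 15% of all genes. The NuRD subunits CHD3, RBBP4 and MTA1 fell by 0.57, 0.67 and 0.65. Acetyltransferases and acetyl-lysine readers were lower in 9 of 16 tested members and higher in 1, or 6 and 1 with all 8 libraries. KAT5, of the TIP60 complex, fell by 1.13 and BRD2, a BET protein, from 5576 and 5741 to 3955 and 4001.

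Polycomb and DNA methylation genes were lower in 14 of 24 tested members and higher in 4, or 8 and 2 with the spread from all 8 libraries. Of all genes 25.6% were lower and 25.3% higher, or 15.6% and 15% with that spread. UHRF1, which brings the maintenance methyltransferase to replicated DNA, was at 1896 and 1845 with vehicle and 407 and 416 with panobinostat (-2.18 ± 0.11, adjusted p = 7.08e-12). DNMT1, that methyltransferase, fell by 1.20, SUZ12 by 0.82 and EZH2, the methyltransferase of polycomb complex 2, by 0.63. UHRF1, DNMT1 and EZH2 are known to be made most in dividing cells. Of 11 tested genes widely reported to respond to deacetylase inhibitors 8 rose and 2 fell. CLU, clusterin, was at 308 and 314 against 860 and 967 (1.55 ± 0.092) and GSN, gelsolin, rose by 1.25, while TYMS and CTPS, of pyrimidine synthesis, were the 2 that fell.

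Outputs of the RAF, MEK and ERK kinases, which the GNAQ mutation drives in these tumours, rose in 12 of 23 tested members and fell in 0. Their median was 0.56, and of all genes 25.3% rose and 25.6% fell. With the spread from all 8 libraries 5 members rose, against 15% of all genes, and with edgeR 1 member fell. PHLDA1 was at 2075 and 1997 with vehicle and 5305 and 5580 with panobinostat (1.42 ± 0.067, adjusted p = 3.38e-12). DUSP4, an ERK phosphatase, was at 6693 and 7080.1 against 12726 and 11352 (0.80 ± 0.067). DUSP6 (577 and 567 against 627 and 583) and SPRED2, feedback inhibitors of the same kinases, did not pass. SPRY4 and ETV5 rose by 0.88 and 0.54 but had adjusted p of 0.163 and 0.135 with all 8 libraries. MYC, at 4021 and 4133 against 5921 and 6139 (0.56 ± 0.18, adjusted p = 0.0126), lost its call with all 8 libraries (0.194), with DESeq2 (0.106), and without panobinostat replicate 1 (0.105) or 2 (0.138). Of the 17 cascade genes KSR1, a scaffold, rose by 1.39 and SOS1, a RAS exchange factor, by 0.59, MAP2K2 fell by 0.66 and MAP2K1 did not pass (0.08).

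Genes of the GNAQ arm were higher in 6 of 19 tested members and lower in 5, near the 25.3% and 25.6% of all genes, and 2 were lower without panobinostat replicate 2 or vehicle replicate 1, 3 without vehicle replicate 2, 2 with all 8 libraries and 3 with no filter on low values. GNAQ itself did not pass (-0.18 ± 0.10), GNA11, its close relative, fell by 0.75, RASGRP3, which links it to RAS, was at 2552 and 2375 with vehicle and 2385 and 2542 with panobinostat, and RGS2, which limits the G protein, rose by 1.75. Targets and partners of YAP, another arm of the same oncogene, gave 6 of 18 higher and 8 lower (4 lower without panobinostat replicate 2 and 5 without vehicle replicate 2). The well-known YAP targets CYR61 and CTGF went opposite ways, CYR61 falling by 0.59 and CTGF rising by 1.38, and CRIM1 rose by 1.65. Receptor tyrosine kinases were higher in 9 of 21 tested members and lower in 3. The falls came to 5 with edgeR, with the 4 libraries alone or without either combination library, and to 1 without panobinostat replicate 1 or vehicle replicate 1. ERBB3 was at 351 and 339 against 778 and 755 (1.15 ± 0.092), and EPHB2, IGF1R and ERBB4 also rose. Insulin, PI3K and FOXO genes were higher in 15 of 26 and lower in 4. FOXO1, a factor that AKT keeps out of the nucleus, was at 412 and 472 against 1496 and 1608 (1.81 ± 0.09, adjusted p = 6.48e-12), DDIT4, a brake on mTOR complex 1, at 66.2 and 58.6 against 349.7 and 309 (2.38 ± 0.14), and IRS2 rose by 0.74.

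Pigment cell genes were read in 2 lists, beside 25.3% higher and 25.6% lower of all genes. Of 16 tested transcription and lineage factors of melanocytes 12 rose and 0 fell, with a median of 0.59. Of 27 tested melanin and melanosome genes 5 rose and 11 fell, with a median of -0.16. The spread from all 8 libraries gave 9 and 0 for the factors and 4 and 8 for the melanosome genes. Of all genes 15% rose and 15.6% fell with that spread. MITF, the master factor of the lineage, was at 4158 and 4070.1 with vehicle and 5343 and 5099 with panobinostat (0.34 ± 0.054, adjusted p = 2.96e-05). SOX10, from the neural crest, was at 10554 and 10220.0 against 15788 and 16174 (0.62 ± 0.046), and PAX3 rose by 0.92. SLC45A2, a melanosome transporter, fell from 1588 and 1691 to 981 and 865 (-0.83 ± 0.086) and GPR143, a melanosome receptor, by 0.67. GPNMB, a melanosome glycoprotein, rose by 0.73. Without either combination library or with edgeR, 2 lineage factors were lower, and with a replicate block 1 was. Of 8 tested genes that mark class 1 uveal melanoma, the class with low risk of metastasis, 5 rose and 1 fell, with SATB1 at 209 and 207 against 546 and 492 (1.32 ± 0.11) and ROBO1 at 0.81. Of the 3 tested class 2 genes RAB31 rose by 0.58 and HTR2B, a serotonin receptor, fell by 0.50, with an adjusted p of 0.057 without panobinostat replicate 2.

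Antigen presentation genes moved in both directions. HLA-B and HLA-C, classical class I heavy chains, rose by 0.73 and 0.79, with HLA-B at 2907 and 2922 with vehicle and 4781 and 4915 with panobinostat (adjusted p = 1.44e-09). PSMB9, an immunoproteasome subunit, rose by 1.47 and TAP1, of the peptide transporter, by 0.59, whereas TAP2, its partner, fell by 0.79. In total 8 of 19 tested members rose and 5 fell (3 without vehicle replicate 2), against 25.3% and 25.6% of all genes, and reads of HLA genes may be shared between copies. HLA-DMB, which loads class II molecules, was at 13.8 and 17.4 against 188 and 149 (3.35 ± 0.27), with an adjusted p of 0.069 with all 8 libraries, and 7 of 10 class II genes in the table were too low to test. Of 20 tested interferon-stimulated genes 9 rose and 2 fell, but 3 rose with all 8 libraries, 4 without panobinostat replicate 1 and 5 without vehicle replicate 2. The falls came to 1 with all 8 libraries, with DESeq2, with another filter on low values, without panobinostat replicate 2 and without either vehicle library. IFI6 rose by 1.02 and STAT2 by 0.80, and OAS3 fell by 0.91. CD276, an immune checkpoint ligand, rose by 0.62 and PVR, a ligand of natural killer cell receptors, fell by 0.63.

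Mesenchymal and matrix genes were higher in 17 of 23 tested members and lower in 1, against 25.3% and 25.6% of all genes. ITGA3, a laminin receptor subunit, was at 515 and 494 with vehicle and 2253 and 2165 with panobinostat (2.13 ± 0.081, adjusted p = 1.97e-13). FN1, fibronectin, was at 693 and 762 against 1675 and 1533 (1.14 ± 0.077) and COL1A1 at 133 and 149 against 509.7 and 593 (1.96 ± 0.14). SERPINE2, a protease inhibitor, rose by 1.27 and MMP14, a membrane metalloprotease, fell by 0.63. The fibroblast markers COL1A2, COL3A1, PDGFRB and DCN were at or below 6.12 in all 4 libraries. In the LDL receptor family 10 of 18 tested members rose and 3 fell, beside the same shares of all genes, or 7 and 3 with all 8 libraries. LRP2, megalin, an endocytic receptor, was at 10.8 and 17.4 against 548 and 473 (5.11 ± 0.19, adjusted p = 1.15e-13), and LRP1 at 1499 and 1459 against 3988 and 3835 (1.40 ± 0.058). LRP3 of the same family fell by 1.05.

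**Figure D4:**
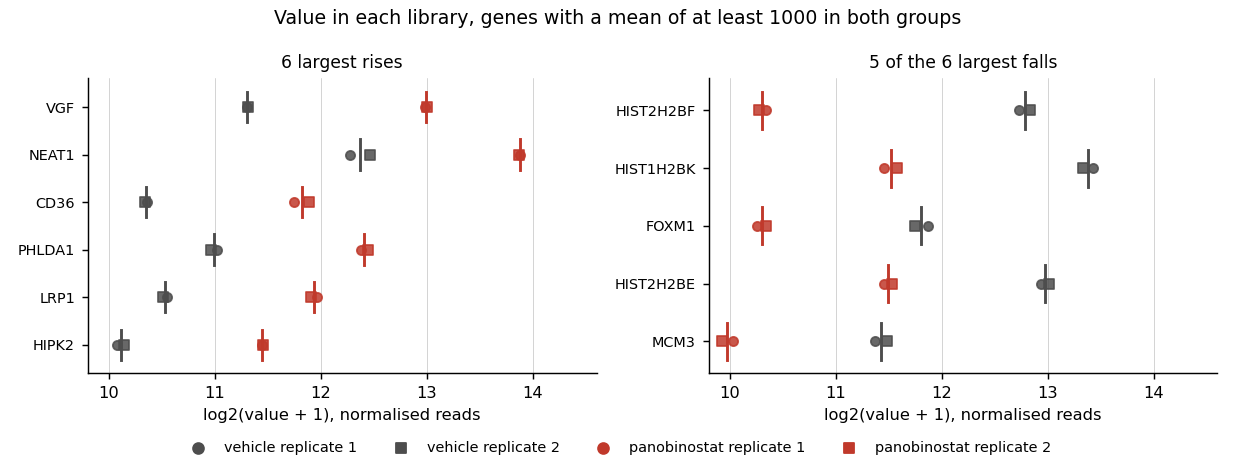
Values in each library, as log2(value + 1) of normalised reads on the x axis, of the 6 genes with the largest rises and 5 of the 6 with the largest falls among genes with a mean of at least 1000 in both groups, with circles and squares for the 2 replicates. VGF, NEAT1, CD36, PHLDA1, LRP1 and HIPK2 rose by 1.34 to 1.69, and the falls run from HIST2H2BF at -2.48 to MCM3 at -1.45.

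Among genes with a mean of at least 1000 in both groups, where counting error is small, rises were led by VGF and by NEAT1, the RNA that scaffolds paraspeckles, at 4956 and 5634 with vehicle and 15097 and 14948 with panobinostat (1.51 ± 0.056). CD36, a fatty acid receptor, was at 1312 and 1291 against 3445 and 3780 (1.47 ± 0.062), and HIPK2, a stress kinase, at 1078 and 1131 against 2786 and 2798 (1.34 ± 0.063). The largest fall at that level was HIST2H2BF, at 6803 and 7311 against 1297 and 1237 (-2.48 ± 0.09). The replicates of a group lay close together in all 11 genes plotted at that level, and no groups overlapped, as the rule requires.

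Nucleolar and chaperone genes were mostly lower. Of 31 tested nucleolar ribosome biogenesis genes 26 fell and 0 rose, with a median of -0.67, and without either combination library or with edgeR 1 rose. NPM1, nucleophosmin, was at 13135 and 12289.5 with vehicle and 6635 and 7004 with panobinostat (-0.90 ± 0.054, adjusted p = 9.15e-11), and NCL, nucleolin, fell by 0.88. Cytosolic ribosomal protein genes moved by less, with 20 of 44 lower and 6 higher and a median of -0.09. With all 8 libraries 13 were lower and 3 higher, and 3 were higher without panobinostat replicate 1 or vehicle replicate 1. Heat shock and chaperonin genes fell in 22 of 28 tested members, with HSPD1, the mitochondrial chaperonin, at 5564 and 5691 against 2995 and 2748 (-0.97 ± 0.063), HSPA8 at -0.80 and HSP90AB1 at -0.65. Of 28 unfolded protein and stress response genes 10 fell, against 25.6% of all genes, and 5 rose (2 with all 8 libraries, and 3 without panobinostat replicate 1 or vehicle replicate 2). XBP1 fell by 1.08 and ATF5 by 1.65, while HSPA5, the main endoplasmic reticulum chaperone, did not pass (-0.07).

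Glycolysis genes fell in 12 of 21 tested members and rose in 3, with ENO1, enolase, at 8212 and 7898 with vehicle and 5037 and 5085 with panobinostat (-0.67 ± 0.053) and LDHA, lactate dehydrogenase, at -0.59. Oxidative phosphorylation genes split, 15 of 35 lower and 7 higher, against 25.6% and 25.3% of all genes. With all 8 libraries 11 were lower and 5 higher, against 15.6% and 15% of all genes. CYC1 of complex III fell by 1.12, and small subunits such as COX7C (0.49), NDUFA4 (0.46) and UQCRB (0.44) rose. Cholesterol synthesis genes were lower in 10 of 22 and higher in 3, or 7 and 2 with all 8 libraries, with INSIG1, a sterol sensor partner, at -0.97. Lysosome genes were higher in 20 of 33 tested members and lower in 3 (5 without combination replicate 2 or with the 4 libraries alone). TPP1, a lysosomal peptidase, was at 4207 and 4148 against 8067 and 7840 (0.93 ± 0.049, adjusted p = 1.37e-11). CD68, a lysosomal glycoprotein also used as a macrophage marker, was at 650.0 and 610.4 against 1417 and 1497. Autophagy genes were higher in 12 of 25 and lower in 2, or 11 and 0 with all 8 libraries. WIPI1, which binds the forming membrane, rose by 1.59. TFEB, the factor that drives lysosome and autophagy genes, was at 16.3 and 24.5 against 55.1 and 53.4 (1.40 ± 0.33).

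Whether these changes were seen again was asked in a second pair of groups, the combination against trametinib alone. That pair shares no library with the vehicle and panobinostat groups. The combination libraries did enter the filter and the spread of the first test, so its calls were not independent of the second pair. A gene low with vehicle could pass that filter through its level in the combination, which favours a rise there. The second pair also sets the same 2 sets of sample numbers against each other as the first, so it does not separate the drug from them. Of 3349 genes that rose with panobinostat alone and were tested in the second pair, 2490 (74.4%) were also higher there, and 1256 (37.5%) passed in that direction, while 281 passed in the opposite one. Of 3422 that fell, 2132 (62.3%) were also lower, 954 (27.9%) passed in that direction and 374 in the opposite one. Over all 13320 genes tested, 54.2% were higher and 45.8% lower in the second pair, and 2343 (17.6%) passed as higher and 2020 (15.2%) as lower. These counts rest on the trametinib libraries, and without replicate 1 of that group 1668 rises and 1315 falls passed in the same direction, and 418 and 723 in the opposite one, beside 4239 higher and 3127 lower of all genes. The difference between the changes, tested itself, passed in 2565 genes (19.3%), 1361 with the larger value beside trametinib (10.2%) and 1204 with the smaller (9.04%), among them 899 of the genes that rose and 1053 of those that fell. Leaving out any 1 of the 8 libraries moved these counts by over 1.5 times, to between 616 and 3673 larger and 690 and 2497 smaller changes.

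In the second pair adhesion genes were again mostly higher, and mitosis genes, mostly lower with panobinostat alone, were mostly higher. L1CAM was at 22.1 and 35.2 with trametinib and 310.2 and 256 with the combination, MAP2 at 131 and 58.3 against 1399 and 1375, and LRP2 at 26.1 and 65.3 against 1960 and 1657. Of 17 tested adhesion genes 12 were higher and 2 lower in the second pair. HIST1H3H, by contrast, was already at 53.2 and 35.2 with trametinib and stood at 212 and 158 with the combination, and MKI67 at 54.2 and 56.3 against 335 and 327. Of 42 mitosis genes 31 were higher and 1 lower in the second pair, where 41 had been lower with panobinostat alone, and of 22 replication-dependent histone genes 11 were higher and 0 lower. HIPK2, which rose with panobinostat alone, was at 5312 and 5057 with trametinib and 3147 and 3180 with the combination.

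**Figure D5:**
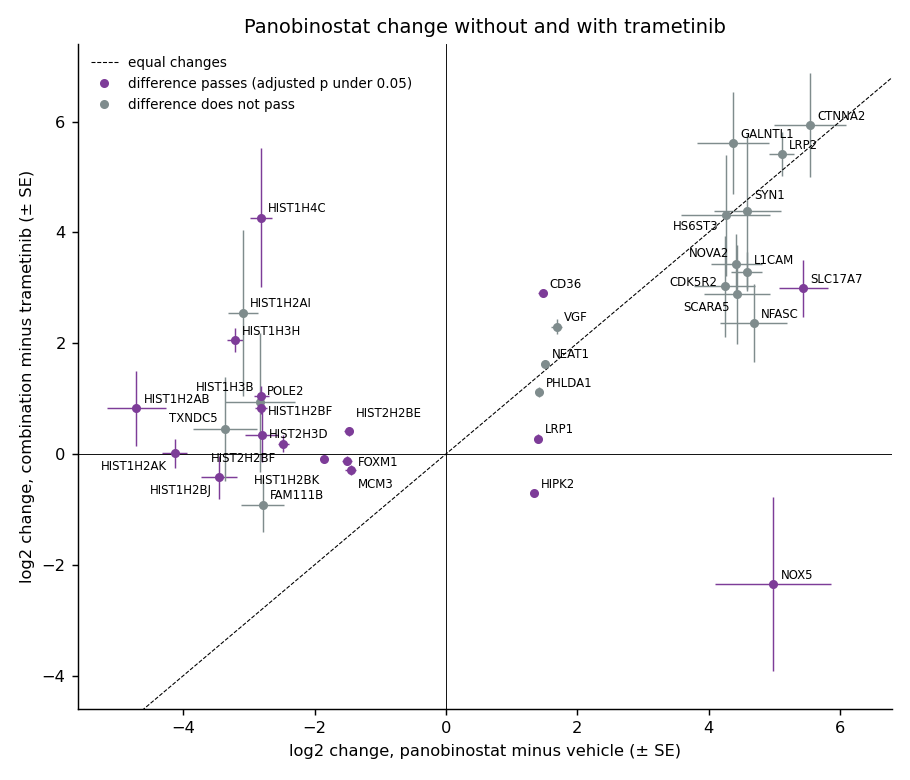
Log2 change with panobinostat alone (x axis) against the change from trametinib to the combination (y axis), each with its SE, for 35 genes named by size of change, coloured by whether the difference between the 2 changes passed. Histone genes lie above the dashed line of equal changes, with fitted differences of 1.77 to 7.09 where the difference passed, and HIPK2 lies below it at -2.05.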

How the data were processed

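RNA-seq was measured in 8 libraries of 92.1 cells, 2 in each of 4 groups, grouped by the drug named on their labels. Libraries were made from total RNA with a NuGEN Ovation kit for FFPE samples, per the labels' protocols. TopHat2 2.0.13, Cufflinks 2.2.1 and DESeq2 are named in the submitters' processing notes, where the build hs37d5 stands beside the vehicle and the trametinib libraries only. Neither the annotation nor the use of strand is given in the sources used here. Signal values as deposited are reads per gene that the authors divided by a size factor for each library, and every value was a whole number of reads times 1 step per library, within a tolerance of 1e-06. One read was worth 0.602 to 1.02 in the 4 libraries compared, so depth limits genes with low values most, and intervals cover counting error only.

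Changes in log2(value + 1) were tested with limma 3.58.1 in R 4.3.3, with its trend of spread on mean level and Benjamini-Hochberg adjustment at 0.05. The fit held the vehicle, panobinostat and combination libraries and genes with a mean of at least 10 in them. The trametinib libraries, whose replicates correlated at 0.91 against 0.97 to 0.99 in the other groups, entered only the fit of all 8 libraries, used for the second pair and the difference of changes. Alternatives were edgeR 4.0.16 and DESeq2 1.42.0 on the recovered reads, TMM factors, other pseudocounts and filters, a replicate block, other sets of libraries, and leaving out each library. Genes were named by size of change (12 rises and 12 falls where the higher group averaged 50 or more, and 6 of each at a mean of at least 1000 in both groups, without overlap and leaving out clones, open reading frames, antisense, small RNA and ribosomal protein symbols) and by the smallest adjusted p in each of 51 gene lists (up to 4), with 15 others always, of which the text leaves out some. Some genes that the rule names are not reported here. A further 52 genes, such as DCX, PTTG1, CDC6 and TP53BP1, were named after their values were seen. The comparison, lists and rules were chosen with earlier results of these data known. Promoter windows are from RefSeq on GRCh38.p14, not the authors' build, and were matched by symbol.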

Additional observations from a re-analysis of the deposited data

Results flagged for a closer look

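For 18 of 35 genes named by size of change, the change with panobinostat alone and the change from trametinib to the combination differed in the test of the difference itself (limma, all 8 libraries, adjusted p below 0.05, against 19.3% of all genes). These genes were chosen for a large change with panobinostat alone, which enters the difference. Values are the second change minus the first, on the log2 scale.

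In 13 genes that fell with panobinostat alone the difference was positive. Histone genes held the largest: 7.09 for HIST1H4C, 5.54 for HIST1H2AB, 5.27 for HIST1H3H, 4.14 for HIST1H2AK, 3.855 for HIST1H3B, 3.65 for HIST1H2BF, 3.16 for HIST2H3D, 3.04 for HIST1H2BJ, 2.66 for HIST2H2BF, 1.895 for HIST2H2BE and 1.77 for HIST1H2BK. Of the cell cycle genes, FOXM1 gave 1.39 and MCM3 1.16. All 13 genes were lower in both trametinib libraries than in either vehicle library, such as HIST1H3H at 53.2 and 35.2 and FOXM1 at 812 and 749.5. HIST1H4C was at 38.1 and 0 in the trametinib libraries, and its difference was 4.44 without trametinib replicate 2, below those of HIST1H2AB (6.10) and HIST1H3H (4.98) there, and 9.73 without replicate 1. Its difference lost its call on leaving out any 1 of the vehicle, panobinostat or combination libraries (adjusted p 0.0735 to 0.105). HIST2H3D lost its call without either vehicle library, panobinostat replicate 1 or combination replicate 1 (0.0555 to 0.0743), and HIST1H2BJ without vehicle replicate 2 (0.0648).

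In 5 genes that rose with panobinostat alone, the difference went either way. CD36, the fatty acid receptor, rose by 2.90 from trametinib to the combination, a difference of 1.43. HIPK2 gave a difference of -2.05, LRP1 of -1.13, SLC17A7 of -2.45 and NOX5 of -7.34. NOX5 was at 0 and 25.1 with trametinib and at 0 in both combination libraries, so its fitted difference depends on the setting: -4.98 without trametinib replicate 2, -9.69 without replicate 1 and -12.18 with edgeR. Its call was lost on leaving out any 1 of the vehicle, panobinostat and combination libraries (0.115 to 0.183), with a pseudocount of 0.5 (0.0767) and with the replicate block (0.0567). SLC17A7 lost its call on leaving out vehicle replicate 2 or any 1 of the panobinostat and combination libraries (0.116 to 0.162).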

How the results depend on the processing

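No named gene that passed changed direction under any alternative run. Of the named genes that did not pass 9 changed sign, as did the medians of 8 lists, whose reported medians lay between -0.02 and 0.12. The median of the 3 class 2 markers went from 0.08 to -0.10 without panobinostat replicate 1 and -0.02 without vehicle replicate 1, that of the single cancer-testis gene from 0.12 to -0.03 without vehicle replicate 2, and that of the metallothioneins from -0.02 to 0.87 with a mean of at least 50. With all 8 libraries in the fit, 1994 genes were higher and 2075 lower, and 4068 of those 4069 calls were also made in the same direction with 6 libraries. By at least 2-fold, 790 were higher and 541 lower in that fit. With genes of a mean of at least 50 only, 823 were higher by at least 2-fold and 634 lower, against 1277 and 733. Leaving out 1 library gave 2546 to 3639 higher and 2482 to 3764 lower genes. For the change from trametinib to the combination it gave 3072 to 4239 higher and 2571 to 3127 lower genes when a trametinib library was left out, against 2343 and 2020. For the difference of the changes it gave 616 to 3673 higher and 690 to 2497 lower, with the fewest without vehicle replicate 1 or panobinostat replicate 1 and the most without trametinib replicate 1, and the cause was not tested. Other tools gave 3517 higher and 3621 lower (edgeR) and 2974 and 3199 (DESeq2). The deviations of same-numbered libraries correlated at -0.010, -0.025 and -0.009 over all tested genes. Such a correlation cannot tell whether same-numbered libraries shared a culture or day that acted on some genes. In the fit with the replicate block 3344 genes were higher and 3389 lower. With all 8 libraries 23 of the named genes lost their calls, and with the replicate block 0 did. Depth limits genes with low values: the median SE was 0.48 at a mean of 10 to 50 and 0.074 at 1000 to 5000.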

Other observations

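Immediate early genes, which growth signals switch on within minutes, were higher in 6 of 21 tested members and lower in 2, with a median of 0.18, against 0.01 and 25.3% higher for all genes. With all 8 libraries 3 were higher and 0 lower, and the falls came to 1 without panobinostat replicate 1 and to 0 without panobinostat replicate 2 or either vehicle library. FOS, a subunit of the AP-1 factor, was at 99.9 and 99.0 with vehicle and 270.1 and 198 with panobinostat (1.21 ± 0.20, adjusted p = 3.87e-05). NR4A1, an orphan nuclear receptor, was at 2458 and 2352 against 3937 and 4079.7 (0.74 ± 0.063, adjusted p = 1.27e-08). In both genes the panobinostat libraries lay above both vehicle libraries, and in 77.3% of all tested genes the groups did not overlap.

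Among 12 tested genes of the MYC network, which include MYC itself, 6 rose and 3 fell, or 4 and 3 with all 8 libraries. Of all genes 25.3% rose and 25.6% fell, or 15% and 15.6% with all 8 libraries. MXI1 and MXD4, which compete with MYC for the partner MAX, rose by 1.08 and 1.00, with MXI1 at 238 and 227 against 491 and 492. Of the cancer-testis genes 1 was high enough to test, SSX1, at 307 and 250.2 against 292 and 312, which did not pass.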
